A study of Mus musculus with 15 samples.

Results

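The T-box genes encode transcription factors that bind DNA through a shared domain, the T-box. Tbx1, Tbx2, Tbx3, Tbx4, Tbx5, Tbx15, Tbx18, Tbx20 and Tbx22 were looked up by Ensembl identifier in a raw count table of 48709 mouse genes. All 9 were found, and all 9 were among the 18940 genes that passed a filter on low counts. The RNA came from salivary glands of mouse embryos of the outbred ICR strain, at the stage when the gland epithelium is a bud surrounded by condensing mesenchyme. Bulk libraries were made from submandibular gland (SMG) epithelium (n = 4) and mesenchyme (n = 4) at embryonic day 11.5, and from parotid gland (PG) epithelium (n = 3) and mesenchyme (n = 4) at embryonic day 12. No treatment and no engineered allele is named for any group. The labels' protocols call the replicates independent and biological. The sources used here do not say how the layers were separated or how many glands a sample holds. Gland and embryonic day change together, so a difference between the glands cannot be told apart from one between the stages.

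As background, T-box factors recognise DNA elements built around the letters AGGTGT, and some activate while others repress. Tbx1 is known from the pharyngeal arches, where it acts in ectoderm, endoderm and the progenitors of head muscle. Tbx2 and Tbx3 are close relatives that act mainly as repressors, and Tbx3 is needed for the mammary bud, another gland that starts as an epithelial placode. Tbx15, Tbx18 and Tbx22 form a related subgroup that is known from mesenchyme: Tbx15 from skin, skeleton and muscle, Tbx18 from the sinus node, ureter and somites, and Tbx22 from the palate. Tbx4 and Tbx5 are known from limb buds, and Tbx5 and Tbx20 from the heart.

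Total gene counts ran from 20561142 to 29552734 per library, so that 1 read was worth a median of 0.0389 CPM, the read count scaled to library size with TMM factors. Layer labels were checked with 16 epithelial and 16 mesenchymal markers. All 16 epithelial markers were higher in epithelium in both glands, and 15 of 16 (SMG) and 16 of 16 (PG) mesenchymal markers were lower there. Markers of the other layer stood at a median of 0.0494 to 0.389% of their level in that layer in SMG mesenchyme, and at 0.715 to 1.39% in SMG epithelium except replicate 3, with 4.04%. In PG epithelium the share was 1.54, 6.29 and 1.65% in replicates 1 to 3, and in PG mesenchyme 16.9% in replicate 1 and 2.52 to 3.34% in the others. SMG epithelium replicate 3, PG epithelium replicate 2 and PG mesenchyme replicate 1 therefore stood apart, and where a called fold moves by over 1.5 times, or a call changes, without one of them, both values are given. In bulk samples, fewer cells of a type and less RNA per cell cannot be told apart.

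The T-box genes with the highest levels differed in part between the 4 groups, and Tbx3 was among the 4 highest in each. To compare levels between genes, CPM were divided by the length of all annotated exons in kb. In SMG epithelium Tbx1 stood at 12.7 ± 0.54 CPM per kb (SD, n = 4) and Tbx3 at 10.2 ± 1.10, and these made up 94.2% of the summed length-scaled level of all members. SMG mesenchyme held mainly Tbx2 (25.4 ± 5.72 CPM per kb), Tbx3 (20.9 ± 7.78) and Tbx22 (9.64 ± 0.92), of which Tbx2 and Tbx3 did not differ beyond their spread. In PG mesenchyme Tbx2 (72.4 ± 14.7 CPM per kb), Tbx18 (67.9 ± 26.1), Tbx15 (58.8 ± 17.9) and Tbx3 (45.3 ± 6.11) made up 97.5% of the sum, and each overlapped its neighbour in that order. PG epithelium was low in all members, with Tbx3 at 3.06 ± 1.53, Tbx2 at 2.57 ± 0.77 and Tbx1 at 1.53 ± 2.32 CPM per kb (n = 3). The summed length-scaled level was 24.3 CPM per kb in SMG epithelium, 62.4 in SMG mesenchyme, 8.03 in PG epithelium and 250.8 in PG mesenchyme.

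**Figure D1:**
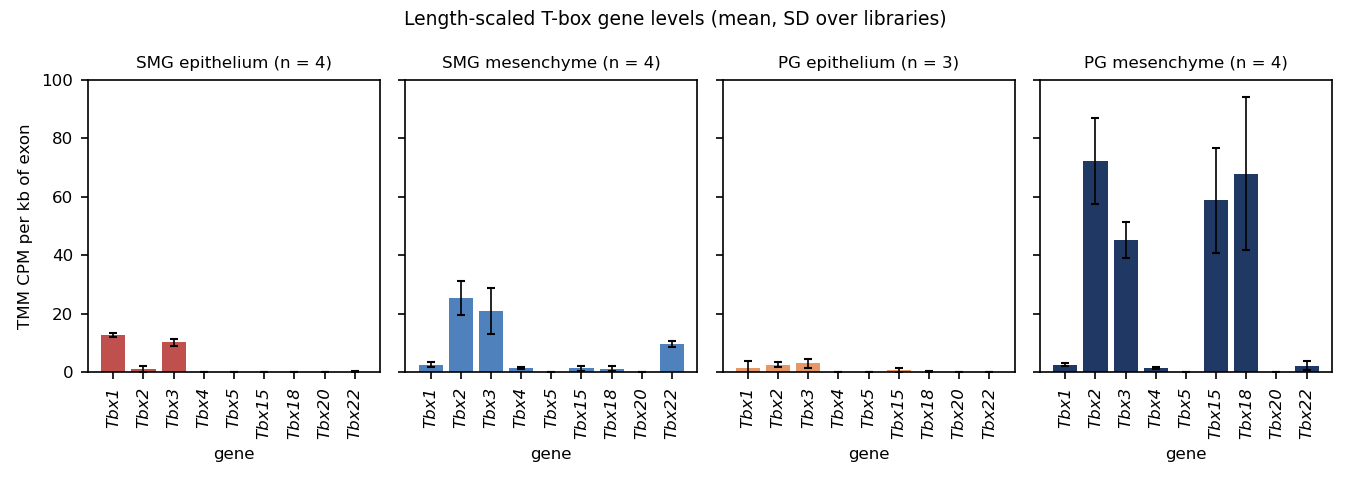
Length-scaled level of each gene (TMM CPM per kb of exon, vertical axis) in each group; bars are means and error bars the SD over libraries. Tbx1 and Tbx3 lead in SMG epithelium, and 4 genes between 45.3 and 72.4 lead in PG mesenchyme.

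The layers of the SMG were compared first, to ask which T-box genes belong to the bud and which to the tissue around it. Tbx1 was the member that was higher in epithelium, and 7 members were lower there. Among all genes tested 25.2% were higher in SMG epithelium and 26.7% were lower, by edgeR's quasi-likelihood F-test with Benjamini-Hochberg adjustment. The members' median log2 change was -3.75, beside 0 over all genes tested. Tbx5 (log2 change -1.76, adjusted p = 0.273) did not pass the test.

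Tbx1 (ENSMUSG00000009097; GRCm38 chromosome 16, 18580979 to 18590671, minus strand) was counted at 46.2, 45.9, 42.0 and 45.0 CPM in the SMG epithelium libraries. In SMG mesenchyme it stood at 9.26, 6.65, 6.51 and 13.7 CPM. The layers did not overlap, and the 4 epithelial values lay close together. The log2 change was 2.31 ± 0.72 (SE), with an adjusted p of 0.0158. In PG mesenchyme Tbx1 was close to its SMG mesenchyme level, at 8.21, 6.92, 11.2 and 10.4 CPM. The PG epithelium libraries gave 0.458, 14.8 and 0.916 CPM, so that 1 library was high and the others low. That library, replicate 2, is the one with the larger share of mesenchymal markers, and its Tbx1 level lay above every PG mesenchyme library. It also had the highest summed level of 10 neuron markers, 218.8 CPM beside 6.45 and 6.22 in replicates 1 and 3. Its 10 endothelial markers summed to 39.2 CPM beside 4.54 and 4.66. The same library was the highest of its group in Tbx2, Tbx3, Tbx15, Tbx18 and Tbx22 as well, but not in Tbx4 or Tbx20. The part of other tissue in these values was not tested.

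The RefSeq promoter table of GRCm38.p6 gives Tbx1 2 starts, and both are shown because Tbx1 is the member that was higher in SMG epithelium. The sequences are the 250 bases before each start, 5′ to 3′ on the minus strand, with motif matches in capitals. Both strands were searched for 7 motifs. For T-box factors the letters were AGGTGT, for forkhead factors such as Foxc1 they were TGTTTAC, and for the GLI factors of hedgehog signalling GACCACCC was used. The E-box of the MyoD type was searched as CAGCTG. Of general promoter elements, the TATA box was searched as TATAAA, the binding site of NF-Y as CCAAT and the GC box of SP and KLF factors as GGGCGG.
Tbx1, start 1, chr16:18588900-18589149: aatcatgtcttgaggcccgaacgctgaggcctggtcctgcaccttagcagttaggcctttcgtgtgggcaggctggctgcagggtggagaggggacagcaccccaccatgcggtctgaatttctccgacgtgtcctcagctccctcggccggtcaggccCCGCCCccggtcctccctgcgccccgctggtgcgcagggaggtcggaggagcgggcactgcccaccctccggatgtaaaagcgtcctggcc
Tbx1, start 2, chr16:18590672-18590921: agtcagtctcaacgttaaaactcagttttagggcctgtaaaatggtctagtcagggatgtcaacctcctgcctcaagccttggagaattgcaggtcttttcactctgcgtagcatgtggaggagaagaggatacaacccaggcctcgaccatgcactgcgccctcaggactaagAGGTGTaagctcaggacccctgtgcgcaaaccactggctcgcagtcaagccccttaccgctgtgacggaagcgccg
The second start is the one at the annotated start of the gene, which on the minus strand is its highest coordinate. Its window holds an AGGTGT 76 bases before the start, which 11.8% of the 32851 promoters in the table hold as well. The window of start 1 holds a GC box 91 bases before the start, shared by 32.7% of promoters. GC content was 67.2% for start 1 and 54.4% for start 2, beside a median of 52.4% over the table. No forkhead match was found in either window, and 3.17% of all promoters hold one.

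Tbx22 (ENSMUSG00000031241; chromosome X, 107667964 to 107688978, plus strand) lay within a narrow range in SMG mesenchyme, at 52.7, 48.9, 51.6 and 60.8 CPM. In SMG epithelium it was counted at 0.321, 0.521, 2.01 and 0.296 CPM. The layers differed by a log2 change of -6.08 ± 0.82 (adjusted p = 3.34e-05), and of -7.12 (adjusted p = 2.68e-05) without SMG epithelium replicate 3. That library was the highest in the epithelium, and its Tbx22 was 3.76% of the SMG mesenchyme mean, beside the 4.04% of the mesenchymal markers.

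Tbx2 (ENSMUSG00000000093; chromosome 11, 85832551 to 85841948, plus strand) was also a mesenchymal gene in the SMG. Its SMG epithelium libraries held 1.82, 2.60, 9.63 and 2.55 CPM, and the SMG mesenchyme libraries 72.0, 79.9, 118.7 and 98.1. The log2 change was -4.47 ± 0.47 (adjusted p = 3.37e-06), and -5.31 (adjusted p = 1.27e-08) without SMG epithelium replicate 3. Replicate 3 again was the highest epithelial library, with Tbx2 at 10.4% of the mesenchyme mean, above the 4.04% of the mesenchymal markers in that library.

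Tbx3 (ENSMUSG00000018604; chromosome 5, 119670669 to 119684724, plus strand) was abundant in both layers of the SMG. It stood at 65.9, 76.4, 68.1 and 58.7 CPM in epithelium and at 128.7, 137.3, 206.9 and 82.0 CPM in mesenchyme. The layers did not overlap, although replicate 4 of the mesenchyme came within a few CPM of the highest epithelial library. The log2 change of -1.04 ± 0.30 was the smallest of the members that passed the test (adjusted p = 0.0103). Epithelial Tbx3 was 42.3 to 55.1% of the mesenchyme mean in the 4 libraries, beside 0.715 to 4.04% for the mesenchymal markers. The part of mesenchymal cells in it was not tested.

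Tbx15 and Tbx18 were low throughout the SMG and lower still in its epithelium. Tbx15 (ENSMUSG00000027868; chromosome 3, 99240381 to 99354259, plus strand) stood at 5.07, 7.91, 0.948 and 5.48 CPM in SMG mesenchyme and at 0, 0.208, 0.0733 and 0 in epithelium, with a log2 change of -5.99 ± 1.43 (adjusted p = 0.00332). Without SMG epithelium replicate 2 it was -7.39, also past the threshold. Tbx18 (ENSMUSG00000032419; chromosome 9, 87702800 to 87731260, minus strand) gave 7.33, 3.03, 1.81 and 10.5 CPM in SMG mesenchyme. All 4 SMG epithelium libraries together held 3 counts of it, and all 3 were in replicate 3. The ratio of CPM was 210 with a 95% counting interval of 71.6 to 1024 (exact Poisson, counting error only), and the adjusted p was 3.29e-05. Without replicate 3 the epithelium held no Tbx18 read, and the fitted log2 change, which then depends on the prior count of the fit, went from -7.47 to -10.15 (adjusted p = 0.00046).

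**Figure D2:**
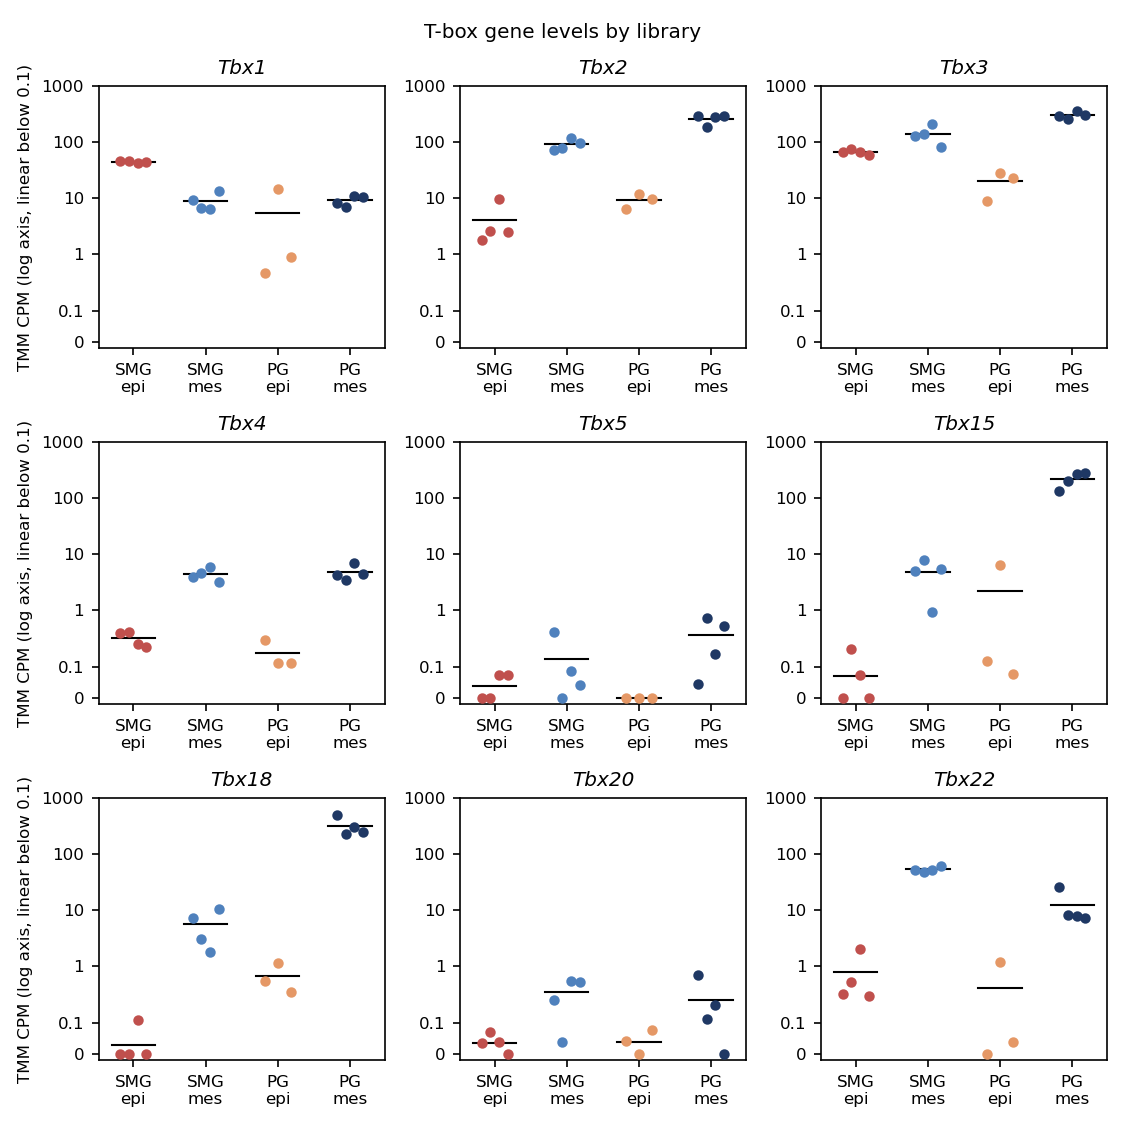
Level of each gene in every library (TMM CPM, log axis, linear below 0.1), with 1 point per library and a line at the group mean. Tbx1 is high in SMG epithelium, Tbx22 is highest in SMG mesenchyme, and Tbx15 and Tbx18 exceed 100 only in PG mesenchyme.

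In the PG, 7 of 9 members were lower in epithelium than in mesenchyme and none was higher. Over all genes tested 24.2% were lower and 21.9% higher. The members' median log2 change was -4.81, beside -0.00582 over all genes tested. Tbx1 and Tbx20 did not pass the test.

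Tbx2 went from 287.6, 183.3, 280.7 and 298.0 CPM in PG mesenchyme to 6.41, 12.01 and 9.58 in PG epithelium, with a log2 change of -4.81 ± 0.52 (adjusted p = 8.83e-06). Tbx3 went from 290.7, 255.2, 353.0 and 302.0 CPM to 8.995, 28.7 and 23.1, with a log2 change of -3.89 ± 0.38 (adjusted p = 2.90e-06). In neither gene did the layers overlap.

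Tbx15 stood at 134.8, 198.7, 271.0 and 276.5 CPM in PG mesenchyme and at 0.125, 6.45 and 0.0763 in PG epithelium. Its log2 change was -6.62 ± 1.06 (adjusted p = 0.00023), and it was -11.05 (adjusted p = 4.28e-06) without PG epithelium replicate 2, which holds nearly all its epithelial reads. Tbx18 stood at 499.4, 227.0, 303.0 and 252.8 CPM in PG mesenchyme and at 0.541, 1.17 and 0.343 in PG epithelium. Its log2 change of -8.86 ± 0.73 was the largest between the PG layers (adjusted p = 9.61e-07), and it was -9.51 without PG epithelium replicate 2 (adjusted p = 5.72e-06). In PG epithelium Tbx18 was 0.107 to 0.364% of its mesenchyme mean, below the 1.54 to 6.29% of the mesenchymal markers in the same libraries.

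Tbx22 gave 26.5, 8.28, 7.996 and 7.21 CPM in PG mesenchyme and 0, 1.20 and 0.0382 in PG epithelium. Replicate 1 of the mesenchyme and replicate 2 of the epithelium were the high ones, and the layers did not overlap. The log2 change was -4.88 ± 0.95 (adjusted p = 0.000953), and -8.98 (adjusted p = 0.000146) without PG epithelium replicate 2. It was -4.21 (adjusted p = 0.00133) without PG mesenchyme replicate 1. For Tbx1 the log2 change between the PG layers was -0.76 ± 0.78 (adjusted p = 0.459). Without PG epithelium replicate 2 it was -3.73 with an adjusted p of 2.45e-06. Whether Tbx1 was called thus turned on a single library, and limma with a pseudocount of 0.25 called it with all libraries (adjusted p = 0.0432).

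Between the mesenchymes, 4 members were higher in the PG and 1 was lower, beside 15.3% of all genes higher and 9.43% lower. Tbx18 and Tbx15 differed most, Tbx2 and Tbx3 rose by smaller amounts, and Tbx22 fell. The members' median log2 change was 1.11, and over all genes tested it was 0.0236.

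Tbx18 had a mean of 320.5 ± 123 CPM in PG mesenchyme (SD, n = 4) and 5.66 ± 3.99 in SMG mesenchyme (n = 4). No PG library fell below 227.0 CPM and no SMG library exceeded 10.5. The log2 change was 5.82 ± 0.53 (adjusted p = 6.19e-06). Tbx15 had a mean of 220.3 ± 67.1 CPM in PG mesenchyme and 4.85 ± 2.89 in SMG mesenchyme, again with no overlap. Its log2 change was 5.50 ± 0.87 (adjusted p = 0.000542).

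Both genes belong to 1 subgroup of the family, so their coding sequences were compared to show how alike the counted transcripts are. The ungapped stretch of 120 bases with most identities lies in the coding sequence, in GENCODE M21, of the longest coding transcript, counted from its first coding base. It is shown here 5′ to 3′, with differing bases in capitals.
Tbx15, coding bases 458 to 577 of 1806: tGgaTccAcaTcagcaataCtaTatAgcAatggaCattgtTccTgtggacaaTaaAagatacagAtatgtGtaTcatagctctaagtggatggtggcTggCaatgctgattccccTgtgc
Tbx18, coding bases 554 to 673 of 1839: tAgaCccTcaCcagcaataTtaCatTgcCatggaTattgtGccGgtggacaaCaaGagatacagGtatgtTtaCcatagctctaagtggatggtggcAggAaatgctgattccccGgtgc
The 2 stretches share 101 of 120 bases (84.2%), and the longest run without a difference anywhere in the 2 coding sequences was 23 bases. The sources used here do not state the read length. Among the pairs of members, Tbx4 with Tbx5 (103 of 120 bases, 85.8%) and Tbx2 with Tbx3 (100 of 120, 83.3%) had stretches about as alike.

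Skeletal muscle markers moved with the gland in the mesenchyme. All 11 (among them Myod1 and Myog, the regulators of muscle fate, and Ttn and Myh3, parts of the contractile apparatus) were higher in PG mesenchyme, and none was at 0 in any mesenchyme library. Their summed level was 107.9, 76.7, 57.8 and 260.1 CPM in SMG mesenchyme and 2182, 1692, 1417 and 1048 CPM in PG mesenchyme. Within SMG mesenchyme the order of the libraries by Tbx18 was their order by muscle sum. Tbx15 did not follow that order and was highest in SMG mesenchyme replicate 2, at 7.91 CPM, whose muscle sum was below those of replicates 1 and 4. Within PG mesenchyme the library with the highest muscle sum, replicate 1, had the highest Tbx18 and the lowest Tbx15. Replicate 2, with the next highest muscle sum, had the lowest Tbx18, at 227.0 CPM, so Tbx18 did not follow the order by muscle sum in PG mesenchyme. The order by Tbx15 there was the reverse of the order by muscle sum. Tbx18 was 3.13 to 6.79% of the muscle sum in SMG mesenchyme and 13.4 to 24.1% in PG mesenchyme, which did not overlap. Tbx15 was 1.64 to 10.3% of it in SMG mesenchyme and 6.18 to 26.4% in PG mesenchyme, which overlapped. The part of muscle cells in the rise of either gene was not tested. Summed markers of mural cells of vessels, in which Tbx18 is known as well, were 101.2 to 143.2 CPM in SMG mesenchyme and 92.9 to 123.3 in PG mesenchyme. Of the 6 tested none was higher in PG mesenchyme and 1 was lower. The same sum was 128.2 to 158.1 CPM in SMG epithelium and 61.2 to 91.7 in PG epithelium, so it is not particular to mesenchyme. The part of mural cells in the Tbx18 level was not tested.

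**Figure D3:**
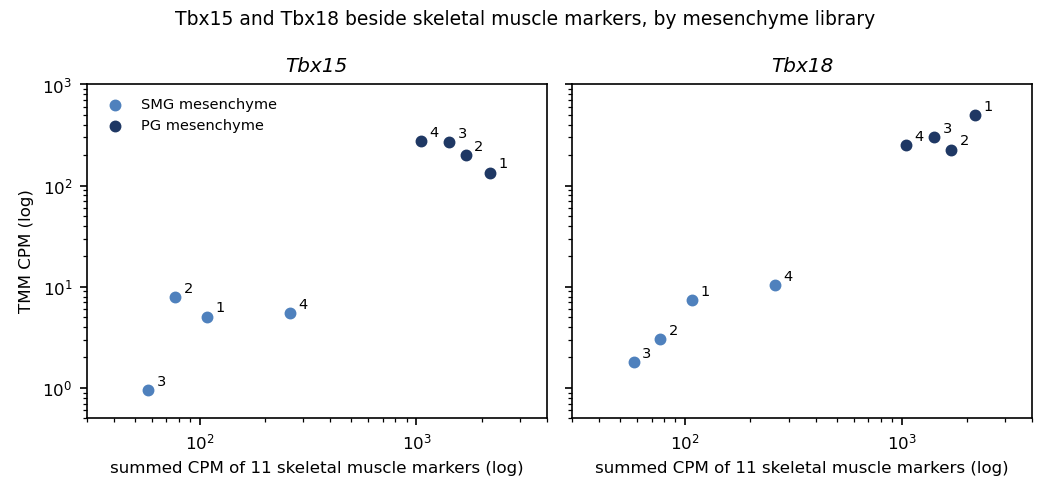
Level of Tbx15 (left) and Tbx18 (right) against the summed level of 11 skeletal muscle markers in each mesenchyme library (TMM CPM, both axes log); numbers are replicates. Between glands both rise with the muscle sum. Within PG mesenchyme Tbx15 is lowest, at 134.8, where the muscle sum is highest, at 2182, and Tbx18 is lowest, at 227.0, in replicate 2.

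Tbx2 had a mean of 262.4 ± 53.2 CPM in PG mesenchyme and 92.2 ± 20.8 in SMG mesenchyme. Its lowest PG library, replicate 2 with 183.3 CPM, lay above its highest SMG library, with 118.7. The log2 change was 1.51 ± 0.40 (adjusted p = 0.0136). Tbx3 had a mean of 300.3 ± 40.4 CPM in PG mesenchyme and 138.7 ± 51.5 in SMG mesenchyme, with no overlap, and a log2 change of 1.11 ± 0.30 (adjusted p = 0.0153). Without a filter on low counts the adjusted p of Tbx3 was 0.0505.

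The best-matching stretches of this pair are shown for the 2 members that were abundant in both mesenchymes, again with differing bases in capitals.
Tbx2, coding bases 284 to 403 of 2133: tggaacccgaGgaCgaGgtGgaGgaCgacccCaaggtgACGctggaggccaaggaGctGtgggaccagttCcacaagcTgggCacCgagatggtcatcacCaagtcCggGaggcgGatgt
Tbx3, coding bases 278 to 397 of 2223: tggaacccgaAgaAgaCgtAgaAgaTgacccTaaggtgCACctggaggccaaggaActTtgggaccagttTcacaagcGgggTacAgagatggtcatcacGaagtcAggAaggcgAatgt
They share 100 of 120 bases, and the longest run in common between the 2 coding sequences was 14 bases.

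Tbx22 moved the other way between the mesenchymes. Its mean was 12.5 ± 9.33 CPM in PG mesenchyme and 53.5 ± 5.11 in SMG mesenchyme, and the highest PG library (26.5) was below the lowest SMG library (48.9). The log2 change was -2.10 ± 0.65 (adjusted p = 0.0311), and without PG mesenchyme replicate 1 it was -2.77 (adjusted p = 0.00786). The call was lost when any 1 SMG mesenchyme library was left out (adjusted p = 0.0557 to 0.0626), or PG mesenchyme replicate 2, 3 or 4 (adjusted p = 0.0824 to 0.083). It was lost without a filter on low counts (adjusted p = 0.0752), and DESeq2 gave an adjusted p of 0.111. Tbx1 (log2 change 0.02 ± 0.70, adjusted p = 0.988) and Tbx4 (0.11 ± 0.29, adjusted p = 0.837) did not pass the test between the mesenchymes, and neither did Tbx5 (1.44, adjusted p = 0.328) or Tbx20 (-0.40, adjusted p = 0.778).

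Promoters are shown for Tbx18 and Tbx22, which differed in opposite directions between the mesenchymes, as the 250 bases before the start with matches to the same motifs in capitals (RefSeq, GRCm38.p6). Of the 9 members, 5 had an entry in the table.
Tbx18, minus strand, chr9:87731261-87731510: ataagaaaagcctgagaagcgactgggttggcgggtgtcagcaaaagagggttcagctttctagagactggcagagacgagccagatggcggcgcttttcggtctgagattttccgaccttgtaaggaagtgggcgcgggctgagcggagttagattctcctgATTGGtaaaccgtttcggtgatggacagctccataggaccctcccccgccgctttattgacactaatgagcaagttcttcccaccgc
Tbx22, start 1, plus strand, chrX:107667714-107667963: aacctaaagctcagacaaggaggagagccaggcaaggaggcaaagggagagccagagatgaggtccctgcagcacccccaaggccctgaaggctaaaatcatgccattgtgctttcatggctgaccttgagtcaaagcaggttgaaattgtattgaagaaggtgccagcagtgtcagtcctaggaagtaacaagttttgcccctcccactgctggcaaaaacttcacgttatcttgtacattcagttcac
Tbx18 has an inverted CCAAT 87 bases before its start, as 33.8% of all promoters have on either strand, and 15 CpG dinucleotides beside a median of 6 over the table. The table gives Tbx22 3 starts, of which start 1, at the annotated start of the gene, is shown. Its window holds none of the 7 motifs and 1 CpG, which lies at percentile 7.87 of all promoters. The window of start 2 holds a CCAAT 71 bases before the start, and that of start 3 holds none of the motifs. An E-box of the MyoD type (13.0% of promoters) was in none of these windows.

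Non-coding RNAs annotated at the Tbx3 and Tbx18 genes were higher in PG mesenchyme as well. The cDNA kit leaves the strand unmarked, so where exons of antisense partners overlap their reads cannot be told apart. Tbx3os1, an antisense RNA that shares 115 bases (1.74%) of the Tbx3 exons, stood at 39.5 ± 9.24 CPM in PG mesenchyme and 2.23 ± 0.79 in SMG mesenchyme, with a log2 change of 4.15 ± 0.39 (adjusted p = 3.05e-06). Tbx3os2, another non-coding RNA named for Tbx3, stood at 7.01 ± 2.08 CPM in PG mesenchyme and 0.294 ± 0.0913 in SMG mesenchyme (4.55 ± 0.50, adjusted p = 1.07e-05). D030062O11Rik shares 970 bases (20.6%) of the Tbx18 exons on the opposite strand and reached 1.495 CPM in PG mesenchyme, a small part of the Tbx18 level there.

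The nearest protein-coding genes on either side of the members were compared between the mesenchymes too. Gm11444, beside Tbx2 and Tbx4, and Gm10181, beside Tbx20, were not tested. Nt5e, the ecto-nucleotidase CD73, lies 595.9 kb from Tbx18 and was higher in PG mesenchyme, at 16.7 CPM beside 0.814 in SMG mesenchyme (log2 change 4.34 ± 0.31, adjusted p = 2.27e-07). Nt5e stood at 28.7 CPM in PG epithelium and 11.6 in SMG epithelium, where Tbx18 had means of 0.684 and 0.0275 CPM. Cep162, 447.3 kb from Tbx18 on the other side, was lower in PG mesenchyme, opposite to Tbx18 (-0.37 ± 0.12, adjusted p = 0.0335). Spag17, 531.1 kb from Tbx15, was higher by 2.19 ± 0.34 (adjusted p = 0.000204), and Wars2, 1.195 kb from Tbx15, by 1.04 ± 0.18 (adjusted p = 0.000498). Itm2a, 264.6 kb from Tbx22, was lower in PG mesenchyme, as Tbx22 was, at 1156 CPM beside 2296 (log2 change -0.99 ± 0.18, adjusted p = 0.000891). The nearer neighbour on the other side, 2610002M06Rik at 93.8 kb, was higher, opposite to Tbx22 (0.34 ± 0.11, adjusted p = 0.0346). Bcas3, next to Tbx2, was higher by 0.65 ± 0.13 (adjusted p = 0.0018). Gnb1l and Gp1bb, the neighbours of Tbx1, did not pass the test, and neither did Med13l beside Tbx3, Brip1 beside Tbx4, Rbm19 beside Tbx5 or Dpy19l2 beside Tbx20.

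Between the epithelia, 2 of 9 members were lower in the PG, Tbx3 and Tbx1, and none was higher. Of all genes tested 4.66% were lower and 7.07% higher. The members' median log2 change was -0.89, and that of all genes tested 0.00211.

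Tbx3 had a mean of 20.3 ± 10.1 CPM in PG epithelium (n = 3) and 67.3 ± 7.31 in SMG epithelium (n = 4), with a log2 change of -1.73 ± 0.35 (adjusted p = 0.00492). Its highest PG library, with 28.7 CPM, lay below its lowest SMG library, with 58.7. Tbx1 fell by a log2 change of -3.05 ± 0.83 (adjusted p = 0.0309). No PG epithelium library reached the lowest SMG epithelium library, since the high one had 14.8 CPM beside 42.0. Without PG epithelium replicate 2 the log2 change was -5.99 (adjusted p = 6.27e-07). The call was lost when SMG epithelium replicate 1, 2 or 4 (adjusted p = 0.0559, 0.059 and 0.0586) or PG epithelium replicate 1 or 3 (adjusted p = 0.0501 and 0.0798) was left out. It was also lost without a filter on low counts (adjusted p = 0.0792), with the replicate number as a block (adjusted p = 0.0538) and with only these groups in the fit (adjusted p = 0.155).

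Tbx2 did not pass the test between the epithelia (log2 change 1.17 ± 0.47, adjusted p = 0.134), and it was called at 2.00 (adjusted p = 0.000415) without SMG epithelium replicate 3. Limma with a pseudocount of 0.25 also called it (adjusted p = 0.0492). Tbx15 (4.86, adjusted p = 0.075) rested on PG epithelium replicate 2, without which the log2 change was 0.46 (adjusted p = 0.938). It passed without PG epithelium replicate 1 (adjusted p = 0.0428) or 3 (adjusted p = 0.036), and with DESeq2 (4.98, adjusted p = 0.00461). Tbx18 was 25.4 times as high in PG as in SMG epithelium by summed reads, with a counting interval of 8.22 to 127, on 52 and 3 counts. It had an adjusted p of 0.0751, and passed only when SMG mesenchyme replicate 3 or 4 was left out among single libraries (adjusted p = 0.0406 and 0.0493). DESeq2 called Tbx18 at 4.68 (adjusted p = 0.00046), and limma with a pseudocount of 0.25 called it as well (adjusted p = 0.0285). Without SMG epithelium replicate 3 its fitted log2 change went from 4.43 to 7.11 (adjusted p = 0.113), against a group with no reads. Tbx22 did not pass (log2 change -0.90, adjusted p = 0.662), but it was called at -4.98 (adjusted p = 0.0241) with PG epithelium replicate 2 and PG mesenchyme replicate 1 both left out.

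**Figure D4:**
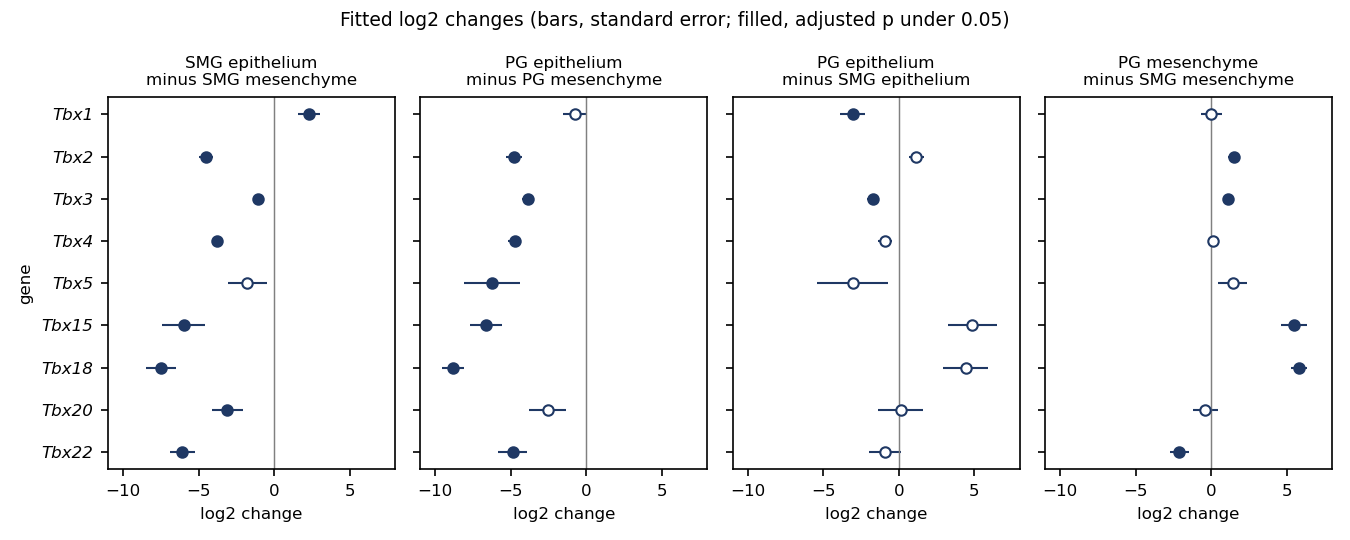
Fitted log2 change of each gene (horizontal axis) in the 4 comparisons between groups, with standard errors; filled points have an adjusted p under 0.05. Values of Tbx5, Tbx18 and Tbx20 against an epithelium with 0 to 4 counts depend on the prior count of the fit.

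The last comparison asked whether the difference between layers differed between the glands. Tbx3 was the only member that passed (log2 change -2.84 ± 0.46, adjusted p = 0.00102), beside 8.32% of all genes lower and 5.97% higher. In the PG the epithelium was below the mesenchyme by a log2 change of -3.89 and in the SMG by -1.04. For Tbx1 the difference was -3.07 ± 1.06 (adjusted p = 0.0758), and -6.01 (adjusted p = 1.73e-06) without PG epithelium replicate 2. The members' median was -0.99, and over all genes tested it was -0.0168. The layer differences of the other 7 members were not shown to differ between glands, and limma on log2 CPM with a pseudocount of 1 called 5 members, Tbx15 (-4.40) and Tbx18 (-5.04) among them.

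Tbx4, Tbx5 and Tbx20 were the low members. Tbx4 (ENSMUSG00000000094; chromosome 11, 85886422 to 85916097, plus strand) lies 44.5 kb from Tbx2 and shared its layer at a much lower level. It stood at 3.90, 4.65, 5.95 and 3.19 CPM in SMG mesenchyme and at 4.26, 3.42, 6.91 and 4.45 in PG mesenchyme. No epithelium library exceeded 0.417 CPM. The layers differed by a log2 change of -3.75 ± 0.35 in the SMG (adjusted p = 3.25e-07) and -4.75 ± 0.43 in the PG (adjusted p = 5.90e-07).

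Tbx5 (ENSMUSG00000018263; chromosome 5, 119832668 to 119885219, plus strand) lies 147.9 kb from Tbx3 but was near the limit of detection. It had 0, 0, 2 and 2 counts in SMG epithelium, 10, 0, 2 and 1 in SMG mesenchyme, 0 in all 3 PG epithelium libraries and 1, 19, 4 and 11 in PG mesenchyme. With a floor of 3 counts over the PG epithelium it was at least 9.51-fold higher in PG mesenchyme (adjusted p = 0.0144). This PG layer difference of Tbx5 was recomputed in 19 settings, beside 23 for Tbx2, because Tbx5 was not tested in the rest. Tbx20 (ENSMUSG00000031965; chromosome 9, 24718138 to 24774303, minus strand) had 1, 2, 1 and 0 counts in SMG epithelium, 6, 1, 13 and 13 in SMG mesenchyme, 1, 0 and 2 in PG epithelium and 16, 3, 5 and 0 in PG mesenchyme. It was lower in SMG epithelium than in SMG mesenchyme (log2 change -3.08 ± 1.05, adjusted p = 0.0219). The call was lost without SMG epithelium replicate 4 (adjusted p = 0.0519) and by limma with a pseudocount of 1 (adjusted p = 0.0526). Tbx20 was tested here in 19 recomputed settings, beside 23 for Tbx2. It was not tested without PG mesenchyme replicate 1, among others. In the PG the ratio of mesenchyme to epithelium was 6.52 with a counting interval of 1.98 to 33.8 (adjusted p = 0.0962), and it was called without PG mesenchyme replicate 4 (adjusted p = 0.0407). PG mesenchyme replicate 1, with most Tbx20 counts of its group, also had the highest summed neuron markers, 876 CPM beside 238.8 to 405.6 in the other 3 libraries, and the part of neurons was not tested. Summed heart muscle markers did not exceed 7.41 CPM in any library.

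Of 8 other T-box genes in the table, 4 passed the filter. Mga, which pairs a T-box with a second DNA-binding domain, was counted in every group and was 0.39 ± 0.15 higher (log2) in PG epithelium than in PG mesenchyme (adjusted p = 0.0409). Tbxt, the founding member of the family that specifies posterior mesoderm, had 11, 10, 17 and 22 counts in SMG mesenchyme, 15, 22, 63 and 18 in PG mesenchyme, 3, 0, 1 and 4 in SMG epithelium and 0 in all PG epithelium libraries. It was lower in epithelium in both glands (adjusted p = 0.00296 in the SMG and 0.000125 in the PG). Tbr1 was lower in SMG epithelium (-1.33 ± 0.47, adjusted p = 0.0273), and Tbx6 passed in no comparison.

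The signals and factors known to act upstream of T-box genes were tested as a list of 16. Between SMG layers 5 were higher in epithelium and 6 lower, close to the 25.2% and 26.7% of all genes, and between PG layers 8 and 5, beside 21.9% and 24.2%. Foxc1, a forkhead factor linked to Tbx1, was an epithelial gene in both glands. It stood at 259.7 CPM in SMG epithelium and 13.9 in SMG mesenchyme (log2 change 4.22 ± 0.43, adjusted p = 2.81e-06). For the PG the means were 197.8 CPM (epithelium) and 10.2 CPM (mesenchyme), a log2 change of 4.28 ± 0.45. Tbx1 did not share this layer in the PG. Its PG epithelium libraries held 0.458, 14.8 and 0.916 CPM, and edgeR with all libraries did not call it between the PG layers. Whether Foxc1 acts on Tbx1 here was not tested. Aldh1a2, which makes retinoic acid, stood at 635 CPM in SMG mesenchyme and 1.46 in SMG epithelium (-8.76 ± 0.90, adjusted p = 3.77e-06). Between mesenchymes 3 were higher in the PG and 5 lower, beside 15.3% and 9.43%. Foxc2 went from 27.1 CPM in SMG mesenchyme to 0.795 in PG mesenchyme (-5.07 ± 0.53, adjusted p = 7.40e-06), and Bmp2, a bone morphogenetic protein, from 25.7 to 76.9 (1.58 ± 0.27, adjusted p = 0.000539). Mn1, reported to act upstream of Tbx22 in the palate, was 0.99 ± 0.10 higher in PG mesenchyme (adjusted p = 7.20e-06), opposite to Tbx22. Between epithelia 3 were higher in the PG and 2 lower, beside 7.07% and 4.66%, with Fgf8 at 9.48 CPM in PG and 0.106 in SMG epithelium (6.40 ± 0.90, adjusted p = 0.000268).

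Partners and co-repressors of T-box factors made up a list of 20, of which 17 were tested. In SMG epithelium 4 were higher and 12 lower than in mesenchyme, beside 25.2% and 26.7% of all genes, and in PG epithelium 5 and 7, beside 21.9% and 24.2%. Between mesenchymes 4 were higher in the PG and 1 lower, beside 15.3% and 9.43%. Msx1, a homeodomain factor, had the largest change in this list, from 2.23 CPM in SMG mesenchyme to 196.0 in PG mesenchyme (6.46 ± 0.88, adjusted p = 0.000183). Pitx1 was lower in PG mesenchyme (-1.07 ± 0.19, adjusted p = 0.000748). Between epithelia 4 were higher in the PG and 2 lower, beside 7.07% and 4.66%.

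Of 18 reported targets, 15 were tested. In SMG epithelium 3 were higher than in mesenchyme and 10 lower, beside 25.2% and 26.7% of all genes, and in PG epithelium 2 and 10, beside 21.9% and 24.2%. Between mesenchymes 8 were higher in the PG and 3 lower, beside 15.3% and 9.43%, and the median log2 change was 1.75 beside 0.0236 over all genes tested. Wnt5a, a signalling ligand, went from 21.2 CPM in SMG mesenchyme to 198.1 in PG mesenchyme (3.22 ± 0.32, adjusted p = 8.85e-06). Myf5 and Myod1 of this list are also among the 11 muscle markers, and Cdh1, at 23.5 CPM in PG and 0.908 in SMG mesenchyme, is the epithelial cadherin. Its rise goes with the larger share of epithelial markers in PG mesenchyme, and their part in it was not tested. Between epithelia 5 were higher in the PG and 0 lower, beside 7.07% and 4.66%, led by Mycn, at 46.4 CPM in PG and 12.9 in SMG epithelium (1.85 ± 0.18, adjusted p = 8.12e-06).

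Craniofacial mesenchyme factors studied with Tbx15, Tbx18 or Tbx22 formed a list of 13. In the SMG 11 were lower in epithelium, beside 26.7% of all genes, and 1, Pax9, was higher (95.03 CPM in epithelium and 18.7 in mesenchyme). In the PG 10 were lower in epithelium, beside 24.2%, and 0 higher. Between mesenchymes 6 were higher in the PG and 2 lower, beside 15.3% and 9.43%. Meox2 went from 5.37 CPM in SMG mesenchyme to 160.4 in PG mesenchyme (4.90 ± 0.57, adjusted p = 4.78e-05), and Shox2 from 14.1 to 219.9 (3.96 ± 0.44, adjusted p = 3.34e-05). Alx4 went the other way, from 131.2 to 21.9 CPM (-2.58 ± 0.45, adjusted p = 0.000904), as Tbx22 did. Between epithelia 1 was higher in the PG and 2 lower, beside 7.07% and 4.66%, Barx1 among the latter (6.22 CPM in PG and 69.2 in SMG epithelium). For the difference between layer differences the counts of higher and lower genes were 3 and 2 for the upstream list, 3 and 3 for the partners, 2 and 4 for the targets and 2 and 3 for the craniofacial factors, beside 5.97% higher and 8.32% lower over all genes tested.

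The genes whose levels over the 15 libraries were most like each member were found among 12548 genes with a mean of at least 5 CPM in some group, by Pearson's r of log2 CPM. The libraries fall into 4 groups, so these values mainly describe which groups are high, and they carry no test. Tbx18 was most like Chrng (r = 0.992), the embryonic subunit of the muscle acetylcholine receptor, Lrrn1 (0.989) and Myod1 (0.987). Tbx15 was most like Meox2 (0.982), Lrrc7 (0.978) and Thbs4 (0.976). Tbx2 was most like Gxylt2 (0.992), Col1a1 (0.990), the main collagen of connective tissue, and Tmem132c (0.990). Tbx22 was most like Rab3il1 (0.982), Ncald (0.980) and Aldh1a2 (0.979). Tbx3 had an r of 0.972 with Tdrd7 and of 0.971 with Cdh6. Tbx1 had the weakest likeness, with Synpo2 (0.900), Myo6 (0.898) and Prtg (0.897). Among the members themselves Tbx15 and Tbx18 were most alike (r = 0.964 over 15 libraries), and Tbx1 correlated with Tbx2 at -0.23.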

How the data were processed

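RNA was isolated with TRIzol, reverse transcribed to full-length cDNA (SMART-Seq v4) and made into libraries with Nextera XT, per the labels' protocols. The authors deposited whole-number counts per Ensembl gene for all 15 libraries. They also deposited a signal table of CPM scaled by library, from which whole reads were recovered with a constant for each library (100% within 0.001 reads); it served for the limma alternatives only. Per the submitters' processing notes STAR 2.5.2a, edgeR, limma and DESeq2 were used with the builds GRCm38.p3 and mm10. Which program counted the reads, with which strand setting and annotation, is not stated in the sources used here. The 92 rows of spike-in RNA (371 to 1314 counts per library) stayed out of library sizes and tests.

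Counts were fitted with edgeR 4.0.16 in R 4.3.3 (filterByExpr by group, TMM, robust quasi-likelihood fit, 1 mean per group, all 15 libraries in 1 fit). The biological coefficient of variation was 0.227. Each comparison is a two-sided quasi-likelihood F-test adjusted after Benjamini and Hochberg over the 18940 genes, with calls at 0.05, and p-values measure the spread between these samples. Standard errors were taken as the log2 change divided by the square root of F, so they are approximate near 0 counts. CPM in the text were computed from the counts with TMM factors. Symbols were matched for 48349 genes. Where a group had no counts, 3 counts over the group set the bound, and ratios on 1 to 3 counts carry a 95% exact Poisson interval, which both cover counting error only since molecules were not tagged. The script was tested on simulated data.

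All members are named, and the other T-box genes that passed the filter. Of each list up to 2 genes per direction and comparison were named, those past the threshold with a mean of at least 5 CPM and the largest change, and for each member with that level the 3 most alike genes. Some genes this rule selects are not reported here. Members and lists were chosen with earlier results of these data known. Genes, exons and coordinates (1-based) are from GENCODE M21 of GRCm38, and promoters from RefSeq, GRCm38.p6. Alternatives were another normalization, no filter, a replicate block, each library left out, only the groups compared, DESeq2 1.42.0 and limma 3.58.1.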

Additional observations from a re-analysis of the deposited data

Results flagged for a closer look

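In each group of 4 libraries, a member's highest or lowest library was set apart when its gap to the next library exceeded Dixon's 95% critical value. This held for 5 values in 27 groups. The nominal rate of about 1 in 20 groups is for normally distributed values, and 1 library with reads among libraries at 0 is always set apart. The 5 values therefore cannot be set against that rate. SMG epithelium replicate 3 accounts for 3 of them: Tbx2 at 9.63 CPM (1.82 to 2.60 in the other libraries), Tbx22 at 2.01 CPM (0.296 to 0.521) and Tbx18 at 0.110 CPM (3 counts, with 0 in the others). The same library had the largest share of mesenchymal markers in its group, 4.04%, and their part in these values was not tested. Tbx22 in PG mesenchyme replicate 1 stood at 26.5 CPM, with 7.21 to 8.28 in the others, in the library with the largest share of epithelial markers of its group (16.9%). The part of other tissue in that value was not tested. Tbx2 in PG mesenchyme replicate 2 was low, at 183.3 CPM beside 280.7 to 298.0. The layer difference of Tbx3 differed between the glands by a log2 change of -2.84, by a test of the difference itself (edgeR, adjusted p = 0.00102 over all genes tested). Every PG epithelium library lay below every SMG epithelium library, and every PG mesenchyme library above every SMG mesenchyme library.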

How the results depend on the processing

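Each result was recomputed with RLE factors, without a filter on low counts, with a replicate block, with each library left out, with only the groups compared, with PG epithelium replicate 2 and PG mesenchyme replicate 1 both left out, with DESeq2, and with limma on log2 of the deposited CPM plus 1 or 0.25. The count of all genes called stayed within 1.5 times in all 114 recomputed counts, and the count of members in 102 of 114. Of 980 recomputed log2 changes of single members, 917 kept their direction and side of the threshold, 21 lost the call, 23 gained one and 19 changed direction. The cause of these changes was not tested. Settings in which a member was not tested are not among the 980. This concerns mainly Tbx5 and Tbx20, with 19 settings in each comparison beside up to 23 for Tbx2.

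Of the 2 members called between the epithelia, 1 was called without a filter, 1 with the replicate block, 1 with only these groups in the fit, 4 with limma and 0.25, and 1 to 3 with a library left out. Between the mesenchymes 5 became 3 without a filter. For the difference between layer differences, 1 became 2 with both libraries left out, 5 and 4 with limma and a pseudocount of 1 and 0.25, and 1 to 2 with a library left out. No change of direction touched a called value. Between the epithelia Tbx20 stood at -0.0896 with the replicate block and ranged from -0.68 to 0.67 with a library left out, and Tbx22 from -4.97 to 0.14. Between the mesenchymes Tbx1 stood at -0.0034 with only these groups and ranged from -0.11 to 0.30 with a library left out, and Tbx4 from -0.13 to 0.28. For the difference between layer differences, leaving out a library gave ranges of -0.58 to 0.50 for Tbx2, -5.04 to 0.76 for Tbx15, -2.01 to 1.29 for Tbx18, -0.28 to 1.08 for Tbx20 and -2.87 to 2.24 for Tbx22, which stood at -2.21 with both libraries left out.

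Whether the replicate numbers pair the samples was not settled. Deviations of same-numbered SMG layers correlated at 0.0136 to 0.283 and those of PG layers at -0.124 to 0.0721. Libraries with different numbers were not correlated, so these values have no baseline. With the replicate block the calls on Tbx1 between the epithelia (adjusted p = 0.0538) and Tbx22 between the mesenchymes (adjusted p = 0.0625) were lost. Depth limits Tbx5 and Tbx20, which had at most 19 counts in any library.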
